A study of Mus musculus with 24 samples.

Results

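Acute running to exhaustion was examined in the tibialis anterior (TA) muscle of mice that received no light treatment. The comparison covered 12 of the 24 libraries of the series, chosen by their titles: 6 from fatigued mice and 6 from sedentary mice, none treated with photobiomodulation therapy (PBMT, irradiation with near infrared light). All were wild-type male C57BL/6J mice aged 5 to 7 weeks whose lower limbs were shaved and treated with a depilatory cream, and which were kept under anesthesia for 20 min without light. After acclimatization the fatigued control mice later ran to exhaustion on an inclined treadmill and were euthanized immediately, whereas the sedentary control mice did not run. The left TA was stored in Allprotect and its poly(A) RNA was sequenced as directional paired-end libraries. Each library came from 1 mouse. Whether the sedentary mice were placed on the treadmill for acclimatization, the time of day of dissection and the running time of each mouse were not given in the sources used here. The fatigued and the sedentary mice were sequenced as separate projects, so exercise and sequencing project were confounded, and their contributions to any difference below cannot be told apart.

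A single bout of endurance exercise is known to induce a fast transcriptional program in working muscle. Calcium, cAMP and mechanical signals activate immediate early factors of the AP-1, Egr and Nr4a families, and energy and stress signals act on the coactivator PGC-1α (Ppargc1a), heat shock factor 1 and the Foxo factors. The TA of the mouse is a fast-twitch muscle. Myh4, the fastest myosin heavy chain, ranged from 16589 to 61140.4 CPM (counts scaled to the normalized total of the library) over the 12 libraries. Myh7, the slow heavy chain, ranged from 0.307 to 35.5 CPM.

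Libraries differed between the groups in more than their genes. Total counts per library ranged from 56792327 to 68726155 in the fatigued group and from 43271093 to 46904076 in the sedentary group (exact permutation p = 0.00216 on both sides, the lowest that 924 arrangements of 6 against 6 allow). The 10 most abundant genes took 24.9% to 27.2% of the counts in fatigued muscle and 22.6% to 24.1% in sedentary muscle (exact permutation p = 0.00216). Pseudogenes took 0.157% to 0.192% and 0.225% to 0.406%, and genes with transcripts shorter than 1000 nt took 7.11% to 7.82% and 7.88% to 9.30%, respectively (exact permutation p = 0.00216 for each). These quantities separated the groups completely, as did the sequencing project.

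One library stood apart from its group. Sedentary control 4 had 2.62% of its counts in mitochondrially encoded genes, whereas the other sedentary libraries had 14.3% to 15.6% and the fatigued libraries 9.51% to 11.2%. Its distance from the mean of its group (root mean square of log2 differences across genes) was 0.477, against 0.270 to 0.308 for the other sedentary libraries. In a principal component analysis the first component, with 30.4% of the variance, separated the groups, and the second, with 15.7%, separated sedentary control 4 from the other 11 libraries. With all 12 libraries the mean mitochondrially encoded share was 2.58 percentage points lower in fatigued muscle (fatigued minus sedentary -2.58, exact permutation p = 0.206). Without sedentary control 4 the difference was -4.64 points (exact permutation p = 0.00216). Many results below are therefore given without this library as well.

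**Figure D1:**
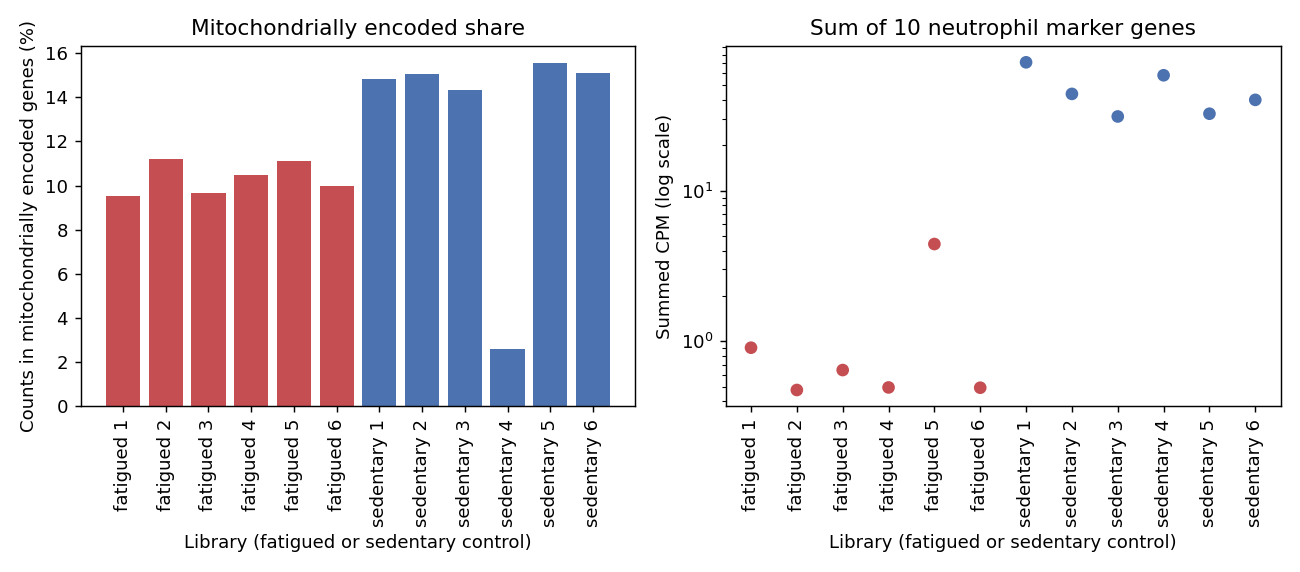
Left, share of counts in mitochondrially encoded genes (percent, bars from 0) in each of the 6 fatigued (red) and 6 sedentary (blue) control libraries. Right, summed level of 10 neutrophil marker genes in the same libraries (CPM, log axis, 1 point per library). Sedentary control 4 is low on the left at 2.62%, and every sedentary library on the right is above every fatigued one.

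Of 14323 genes tested, 1341 were higher and 1025 lower in fatigued than in sedentary muscle (edgeR quasi-likelihood test, Benjamini-Hochberg adjusted p under 0.05). These were 9.36% and 7.16% of the genes tested, 16.5% in either direction. A difference of at least 2-fold was found for 244 higher genes (1.70%) and 164 lower genes (1.15%). The latter count was 93 with the length trend removed, 102 with at least 10 counts required in every library and 271 with DESeq2. Among all genes tested the groups did not overlap for 649 with fatigued muscle higher (4.53%) and 500 with fatigued muscle lower (3.49%). Chance arrangement gives this for 0.108% of genes in each direction. Over all genes tested the median log2 fold change, fatigued minus sedentary, was -0.004. Without sedentary control 4, 1987 genes were higher (13.6%) and 1969 lower (13.5%). Counts of list members without this library are to be read beside these shares. In that fit 2270 of the 2366 genes called with all libraries were still called in the same direction. That number was 1646 to 1960 when any other single library was left out. Without fatigued control 6 the lower genes numbered 659. Transcript length moved with the comparison. Across genes, which are not independent replicates, the log2 fold change had a Spearman correlation of 0.236 with transcript length and of 0.198 with GC content. Among the 2862 genes with the shortest transcripts 120 were higher and 396 lower, and among the 2862 with the longest 431 were higher and 122 lower. With the length trend of each library removed, 1087 genes were higher and 1309 lower, so that 45.4% of calls were higher in place of 56.7%. Of 628 pseudogenes tested, 4 were higher and 192 lower (median -0.54). With counts thinned to the smallest library total, 1226 genes were higher and 1051 lower, and 2164 of the 2366 calls were kept in the same direction. How much of the results came from length, depth or project was not tested.

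The largest rise was that of Nr4a3, an orphan nuclear receptor of the Nr4a family (ENSMUSG00000028341). Its level was 93.2 CPM in the lowest, 218.6 in the median and 296.6 in the highest fatigued muscle, and 4.31, 5.42 and 18.4 CPM in the sedentary muscles. Every fatigued muscle was above every sedentary one, and the highest sedentary value was that of sedentary control 4. The log2 fold change was 4.76 (SE 0.45, edgeR adjusted p = 3.17e-05), and 5.20 without that library. Nr4a2 (2.12, edgeR adjusted p = 0.00064) and Nr4a1 (0.72, edgeR adjusted p = 0.0196) were also higher. Nr4a1 was by far the more abundant in sedentary muscle, with a median of 199.1 CPM against 1.07 CPM for Nr4a2, and 5 of the 6 fatigued muscles were above all sedentary ones for each of these genes. Sik1, a kinase that restrains cAMP-driven transcription, rose from a median of 20.8 to 59.7 CPM (log2 fold change 1.44), and Crem, a cAMP-responsive modulator, from 8.32 to 13.5 CPM (0.83). In the list of Nr4a receptors and cAMP-responsive genes 9 of 18 tested members were higher and 2 lower (median 0.62).

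Atf3, a stress-induced factor of the ATF family (ENSMUSG00000026628), had 71.1 CPM in the lowest, 82.8 in the median and 250.4 in the highest fatigued muscle, against 3.29, 5.08 and 8.63 CPM in sedentary muscle. Fatigued control 6 was far above the other fatigued muscles, all of which were still above the sedentary group. The log2 fold change was 4.28 (SE 0.38, edgeR adjusted p = 2.11e-05). Egr1, a zinc finger factor induced by growth and stretch signals, ran from 6.53 to 36.5 CPM in fatigued muscle and from 1.68 to 3.26 CPM in sedentary muscle, without overlap (2.94, edgeR adjusted p = 0.000433). Its relatives Egr2 (0.21, edgeR adjusted p = 0.648) and Egr3 (-0.24, edgeR adjusted p = 0.779) did not pass the test, and the sign of Egr3 turned without fatigued control 4 (0.01). Maff, a small Maf factor, rose from a median of 3.72 to 15.8 CPM with no overlap (2.06, edgeR adjusted p = 6.14e-07).

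The AP-1 subunits rose less evenly. Jun (log2 fold change 0.81) and Junb (1.10) were higher, with 4 of the 6 fatigued muscles above every sedentary one for each. Fos ranged from 6.18 to 53.3 CPM in fatigued muscle and from 1.05 to 8.02 CPM in sedentary muscle (2.12, edgeR adjusted p = 0.0265), and its call was lost without sedentary control 1 (edgeR adjusted p = 0.0595). The call of Fosb (1.41, edgeR adjusted p = 0.0241) was lost without fatigued control 6 (0.0592) or sedentary control 6 (0.0511). Myc (0.84, edgeR adjusted p = 0.0239) lost its call without fatigued control 6 or without sedentary control 2, 5 or 6, with adjusted p from 0.0519 to 0.0582. In the list of AP-1 and other immediate early genes 15 of 32 tested members were higher and 4 lower (median 0.50). Lower members included Gadd45g, a stress-response gene that fell from a median of 81.1 to 26.1 CPM (-1.77, edgeR adjusted p = 1.22e-05), and Zfp36, which promotes decay of mRNAs with AU-rich elements (-0.94, edgeR adjusted p = 4.85e-05). For both, every fatigued muscle lay below every sedentary one. Klf2, a flow-responsive factor of endothelium, was lower (-0.92, edgeR adjusted p = 0.0264), a call lost without fatigued control 3 (edgeR adjusted p = 0.0513).

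Phosphatases that switch off MAP kinases are induced by the kinases themselves. Dusp5 (1.80, edgeR adjusted p = 0.000769) and Dusp4 (1.19, edgeR adjusted p = 0.000112) were higher without overlap of the groups. Dusp1 had a log2 fold change of -0.22 (edgeR adjusted p = 0.233) and Dusp2 of 1.08 (edgeR adjusted p = 0.0525). Dusp2 lay near the threshold and passed in 9 of 22 other settings, with adjusted p from 0.0037 to 0.110, among them the fits without fatigued control 3 (edgeR adjusted p = 0.0485) or sedentary control 4 (edgeR adjusted p = 0.00578). Of 13 dual-specificity phosphatases tested, 4 were higher and 1 lower.

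Ppargc1a encodes PGC-1α, which drives mitochondrial gene expression with partner nuclear receptors. Its level was 52.6, 175.6 and 262.2 CPM in the lowest, median and highest fatigued muscle and 30.7, 37.0 and 44.0 CPM in the sedentary group. No fatigued muscle reached down to the sedentary range, although fatigued control 3 came close. The log2 fold change was 2.11 (SE 0.30, edgeR adjusted p = 0.000499). The related coactivator Ppargc1b (-0.46, edgeR adjusted p = 0.0689) and the partner receptor Esrra (-0.26, edgeR adjusted p = 0.207) did not pass the test, and both were highest in sedentary control 4 at 14.1 and 189.2 CPM. Ppargc1b passed in 4 of 23 other settings, with adjusted p from 0.00485 to 0.155. Tfam, which packages and transcribes mitochondrial DNA, was slightly lower (-0.22, edgeR adjusted p = 0.0151), with all fatigued muscles below all sedentary ones. Of 20 tested members of the list of PGC-1 coactivators and mitochondrial biogenesis, 4 were higher and 2 lower. The counts were 6 and 3 without sedentary control 4, where 13.6% of all genes were higher and 13.5% lower. They were 4 and 4 with the length trend removed, beside 7.6% and 9.15% of all genes. A replicate block gave 4 and 0.

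Promoter sequences are shown for genes of the cAMP and heat shock groups that rose together, since each group has a well known response element. The stretches are the 250 bases before the gene start on the strand of the gene, from RefSeq (GRCm38.p6), and all 4 genes were found in that table. Capitals mark TGACGT on either strand in Nr4a3 (chr4:48045055-48045304, plus strand), Atf3 (chr1:191183334-191183583, minus strand) and Ppargc1a (chr5:51567726-51567975, minus strand), and GAANNTTC, which reads alike on both strands, in Hspa1a (chr17:34972157-34972406, minus strand). The letters TGACGT occurred in 3 places in Nr4a3 and in 1 place each in Atf3 and Ppargc1a. They were found in this window of 7.293% of all 27025 genes of the table, of 11.224% of 10460 tested genes, of 13.580% of 162 genes higher by at least 2-fold and of 7.692% of 39 genes lower by at least 2-fold. These sets hold only the tested genes that the table contains. GAANNTTC was found in 7.726%, 6.138%, 8.025% and 2.564% of the same sets. A match describes the letters only.
Nr4a3: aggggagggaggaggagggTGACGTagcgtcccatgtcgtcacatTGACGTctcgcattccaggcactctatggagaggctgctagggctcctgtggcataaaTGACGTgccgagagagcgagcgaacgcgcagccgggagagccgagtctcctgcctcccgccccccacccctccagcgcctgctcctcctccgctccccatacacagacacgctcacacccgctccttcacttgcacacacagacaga
Atf3: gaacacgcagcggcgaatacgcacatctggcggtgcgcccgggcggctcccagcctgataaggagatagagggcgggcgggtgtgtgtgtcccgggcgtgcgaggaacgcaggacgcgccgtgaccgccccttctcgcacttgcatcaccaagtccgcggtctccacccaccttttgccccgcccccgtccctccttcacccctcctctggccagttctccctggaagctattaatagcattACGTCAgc
Ppargc1a: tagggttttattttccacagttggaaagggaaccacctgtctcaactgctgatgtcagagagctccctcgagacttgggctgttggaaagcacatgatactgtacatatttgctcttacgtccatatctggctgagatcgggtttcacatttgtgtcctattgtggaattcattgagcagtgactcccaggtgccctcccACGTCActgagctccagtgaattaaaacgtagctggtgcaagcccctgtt
Hspa1a: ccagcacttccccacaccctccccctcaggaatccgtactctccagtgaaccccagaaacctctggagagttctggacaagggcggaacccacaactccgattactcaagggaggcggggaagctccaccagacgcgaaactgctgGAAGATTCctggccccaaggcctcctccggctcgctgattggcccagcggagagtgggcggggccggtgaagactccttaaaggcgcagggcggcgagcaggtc

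Several inducible chaperones of the heat shock response were higher in fatigued muscle. Hspa1a, an inducible 70 kDa heat shock protein (ENSMUSG00000091971), had 6.28 CPM in the lowest, 18.4 in the median and 157.7 in the highest fatigued muscle, against 1.55, 1.85 and 2.26 CPM in sedentary muscle. All fatigued muscles were above the sedentary range, and fatigued control 6 was far above the rest. The log2 fold change was 4.51 (SE 0.86, edgeR adjusted p = 0.00495). The nearly identical copy Hspa1b gave 4.54 (SE 0.93, edgeR adjusted p = 0.00736), and since reads may be shared between the copies, the division of counts between them is uncertain. Without fatigued control 6 the values were 3.42 for Hspa1a and 3.41 for Hspa1b, and with voom quality weights both lost their calls (limma adjusted p = 0.0531 and 0.0841). Hspb1 (1.09), Hsp90aa1 (1.04), Hsph1 (0.71), Hspa8 (0.67) and Bag3 (0.66) were higher with no overlap, with edgeR adjusted p from 8.03e-05 for Hspa8 to 0.000621 for Hspb1. The small heat shock protein Cryab did not pass (0.24, edgeR adjusted p = 0.312). The call of the cochaperone Dnajb1 (1.04, edgeR adjusted p = 0.046) was lost in 9 of the 12 fits that left out 1 library, the exceptions being those without fatigued control 1, 4 or 5, with adjusted p from 0.0570 to 0.0884. Of 33 heat shock chaperones and cochaperones tested, 14 were higher and 0 lower (median 0.24).

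In the list of the unfolded protein and integrated stress response no tested member rose as far as Hspa1a or Hspb1 (largest log2 fold change 0.90). Hspa5, the main chaperone of the unfolded protein response, had a log2 fold change of 0.15 (edgeR adjusted p = 0.256). It passed the test without sedentary control 4 (0.21, edgeR adjusted p = 0.0359) and with voom quality weights (0.25, limma adjusted p = 0.0102), but in none of the other 21 settings (adjusted p up to 0.560). Atf4, the factor of the integrated stress response, was at 0.17 (edgeR adjusted p = 0.207). Ddit3 was higher (0.69, edgeR adjusted p = 0.0215), a call lost without sedentary control 1 (0.0521) or 6 (0.0514). In this list 7 of 27 tested members were higher and 1 lower (median 0.26).

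Genes of the stretched and damaged sarcomere were among the largest rises. Ankrd1, a titin-associated ankyrin repeat protein, had 57.0, 104.8 and 317.8 CPM in the lowest, median and highest fatigued muscle and 5.54, 8.84 and 18.4 CPM in sedentary muscle (3.70, SE 0.45, edgeR adjusted p = 0.000214). Xirp1, an actin-binding protein of damaged myofibrils, had 448.4, 501.5 and 1373 CPM against 55.1, 62.5 and 103.2 CPM (3.23, SE 0.30, edgeR adjusted p = 2.11e-05). For both genes the groups were fully apart, fatigued control 6 was the highest muscle and sedentary control 4 the highest sedentary one. Flnc, a filamin of the Z-disc that partners Xirp1 and Bag3, rose from a median of 444.7 to 1182 CPM (1.47, edgeR adjusted p = 0.000335). The TWEAK receptor Tnfrsf12a (2.74), the small GTPase Rrad (3.20), Runx1 (1.87) and Musk (1.35), a kinase of the neuromuscular junction, were also higher without overlap. The muscle LIM protein Csrp3 (0.59, edgeR adjusted p = 0.129) and Ankrd2 (0.20, edgeR adjusted p = 0.566) did not pass the test, although Csrp3 passed without fatigued control 2 (edgeR adjusted p = 0.0263) or sedentary control 3 (edgeR adjusted p = 0.038). Fhl1 was lower (-0.74, edgeR adjusted p = 0.00545). In the list of stretch-responsive and sarcomere-repair genes 12 of 29 tested members were higher and 1 lower (median 0.45).

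**Figure D2:**
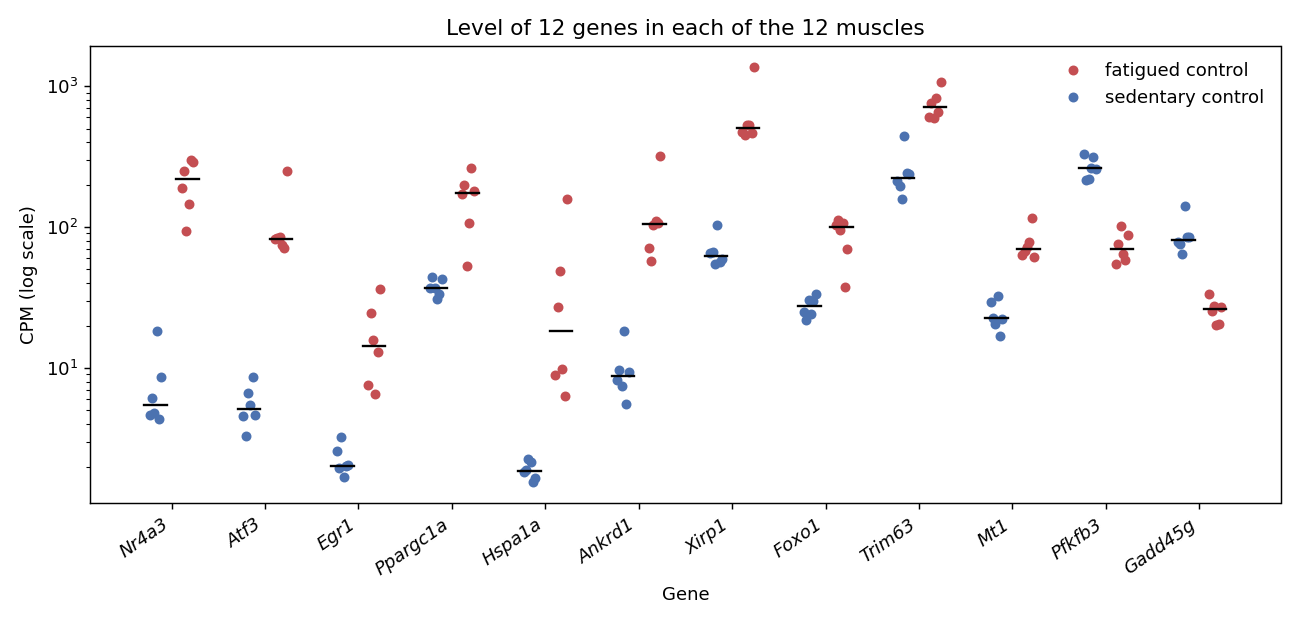
Level of 12 genes (CPM, log axis) in each of the 6 fatigued (red) and 6 sedentary (blue) control muscles, 1 point per mouse, with the median of each group as a black line. The groups are apart for every gene shown, with Nr4a3 at medians of 218.6 and 5.42 CPM and Pfkfb3 at 69.9 and 260.5 CPM in fatigued and sedentary muscle.

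Genes that set the choice of fuel moved in both directions. Hk2, which traps glucose in the fiber, rose from a median of 428.3 to 865.4 CPM (0.91, edgeR adjusted p = 0.00178), with 5 of the 6 fatigued muscles above the sedentary range. The largest fall among metabolic genes was that of Pfkfb3, an activator of glycolytic flux (ENSMUSG00000026773). Its level was 54.8, 69.9 and 101.1 CPM in fatigued muscle and 216.0, 260.5 and 327.3 CPM in sedentary muscle, with a wide gap between the groups (-1.85, SE 0.15, edgeR adjusted p = 2.26e-06). The pyruvate dehydrogenase phosphatase Pdp1 was lower (-0.82, edgeR adjusted p = 0.000298). The opposing kinase Pdk4 was higher (0.57, edgeR adjusted p = 0.038), a call lost in 8 of the 12 fits that left out 1 library, the exceptions being those without fatigued control 1 or 6 or sedentary control 5 or 6 (adjusted p from 0.0511 to 0.0878). Angptl4, an inhibitor of lipoprotein lipase (1.65), Cpt1a, which admits fatty acids to mitochondria (0.60), Ucp3 (0.55) and the insulin receptor substrate Irs2 (1.63) were higher, and the call of Ucp3 was lost in the fit of 24 libraries (edgeR adjusted p = 0.105). The glucose transporter Slc2a4 (-0.03, edgeR adjusted p = 0.799) and the thioredoxin-binding protein Txnip (0.09, edgeR adjusted p = 0.633) did not pass the test, although Txnip passed with voom quality weights (0.23, limma adjusted p = 0.0349), its range over 23 settings being 0.0349 to 0.875. In the list of fuel selection and fatty acid use 8 of 37 tested members were higher and 4 lower, and in that of glycolysis and glycogen 6 of 31 were higher and 4 lower. The latter was 10 higher and 4 lower without sedentary control 4, where 13.6% of all genes were higher and 13.5% lower. With the length trend removed it was 2 higher and 4 lower, beside 7.6% and 9.15% of all genes. Fuel selection was 6 higher and 7 lower with the length trend removed.

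Foxo1, a factor that activates genes of protein breakdown, had 37.3, 99.8 and 112.6 CPM in fatigued muscle and 21.9, 27.3 and 33.3 CPM in sedentary muscle (1.68, SE 0.22, edgeR adjusted p = 0.000208). Fatigued control 5 was the lowest of its group and still above the sedentary muscles. The ubiquitin ligase Trim63 (MuRF1) rose from a median of 223.5 to 707.3 CPM (3.04-fold, edgeR adjusted p = 0.000326), and its highest sedentary value, 445.5 CPM, was in sedentary control 4. The ligase Fbxo32 (0.53) and Foxo3 (0.54) were higher by less, and the call of Fbxo32 was lost in the fit of 24 libraries (edgeR adjusted p = 0.0845). In the list of Foxo factors and muscle atrophy genes 9 of 30 tested members were higher and 2 lower (median 0.11).

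Glucocorticoid-responsive genes went both ways. Higher members included the immunophilin Fkbp5 (0.80, edgeR adjusted p = 0.0015) and the metallothioneins. Ddit4, an inhibitor of mTORC1, ranged from 10.6 to 80.4 CPM in fatigued muscle and from 89.9 to 188.0 CPM in sedentary muscle (-1.65, edgeR adjusted p = 0.015), and the kinase Sgk1 was lower too (-0.65, edgeR adjusted p = 0.00269). Cebpd was lower (-0.92, edgeR adjusted p = 0.0368), a call lost without fatigued control 1, 2, 4 or 6 or sedentary control 4, 5 or 6 (adjusted p from 0.0501 to 0.0659). Of 24 tested members 10 were higher and 5 lower. Among genes of the circadian clock, Cry2 (0.67, edgeR adjusted p = 0.00227) and Nfil3 (0.90, edgeR adjusted p = 1.14e-05) were higher and Bhlhe40 (-0.62, edgeR adjusted p = 0.00392) lower. Dbp was lower (-0.61, edgeR adjusted p = 0.0249), a call lost without sedentary control 5 (0.0530), as was Clock (-0.34, edgeR adjusted p = 0.0406), which lost its call without fatigued control 1, 2, 5 or 6 or sedentary control 1, 2, 5 or 6 (0.0612 to 0.0904). The core factors Arntl (0.34), Npas2 (1.14), Nr1d1 (-0.10), Per1 (-0.38) and Per2 (0.40) did not pass the test with all libraries, with edgeR adjusted p from 0.0826 for Per2 to 0.58 for Nr1d1. Per2 passed without fatigued control 3 (edgeR adjusted p = 0.0209).

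Several genes of metal and oxidant defense were higher. Mt1, a metal-binding metallothionein, had 61.6, 69.8 and 115.7 CPM in fatigued muscle and 16.8, 22.5 and 32.3 CPM in sedentary muscle (1.67, edgeR adjusted p = 2.11e-05). Mt2 (1.97), the sulfiredoxin Srxn1 (1.67), heme oxygenase Hmox1 (1.48) and Osgin1 (2.47-fold) were likewise apart between the groups, with edgeR adjusted p from 2.12e-05 for Osgin1 to 0.000866 for Mt2. Fatigued control 5 was the highest muscle for both metallothioneins. In the list of antioxidant, Nrf2 and metallothionein genes 9 of 26 tested members were higher and 1 lower (median 0.18). Without sedentary control 4, 3 were lower, beside 13.5% of all genes.

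Vascular and signaling genes rose in part. Vegfa, the main angiogenic growth factor, rose from a median of 78.4 to 117.1 CPM (0.49, edgeR adjusted p = 0.00536). The angiogenesis inhibitor Thbs1 (1.37), endothelial nitric oxide synthase Nos3 (0.83) and the endothelial factor Sox18 (1.07) were higher with no overlap. The receptor gene Kdr, whose protein binds VEGF, (0.08, edgeR adjusted p = 0.862) and the endothelial marker Pecam1 (0.28, edgeR adjusted p = 0.0972) did not pass the test. Kdr was at 64.6 CPM in fatigued control 5, and its sign turned without that library (-0.27, edgeR adjusted p = 0.137). Apold1, an endothelial early gene, was lower (-1.68, edgeR adjusted p = 0.000869). In the angiogenic and endothelial list 9 of 30 tested members were higher and 1 lower. Without sedentary control 4 they were 10 and 4, where 13.6% of all genes were higher and 13.5% lower. Of the inflammatory list 18 of 30 members could be tested, of which 4 were higher and 2 lower. Among the untested members, only the chemokine Cxcl10, picked out after its values were seen, had counts without overlap, 10 to 109 per fatigued library and 1 to 4 per sedentary library, the fatigued libraries being the deeper ones. Without sedentary control 4, 7 of 20 tested members of the inflammatory list were higher and 3 lower, beside the same 13.6% and 13.5% of all genes. The signal transducer Stat3 (0.79, edgeR adjusted p = 2.47e-05) and the adhesion molecule Icam1 (1.03, edgeR adjusted p = 0.00591) were higher, and the inhibitor Nfkbia (-0.62, edgeR adjusted p = 0.00116) and the interleukin 1 antagonist Il1rn (-2.13, edgeR adjusted p = 0.0105) lower. Il1rn was scarce, at 0.0154 to 0.279 CPM in fatigued and 0.132 to 0.623 CPM in sedentary muscle, and its groups overlapped. Socs3 had a log2 fold change of 1.33 and did not pass (edgeR adjusted p = 0.0846), with 16.9 CPM in fatigued control 5. Of the muscle-secreted factors tested, 5 of 19 were higher and 1 lower. Metrnl was higher (0.65, edgeR adjusted p = 0.0333), a call lost without fatigued control 1, 5 or 6 or sedentary control 1, 2, 3, 5 or 6 (0.0587 to 0.0755), and Mstn, a brake on muscle growth, did not pass (0.63, edgeR adjusted p = 0.0595) but passed in 3 of 23 other settings, among them that without fatigued control 5, with adjusted p from 0.00351 to 0.169.

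Many subunits of the respiratory chain were lower in fatigued muscle. Of 83 nuclear-encoded subunits tested, 38 were lower and 0 higher, and every member lay below 0 (median -0.28). Atp5l, a subunit of ATP synthase, fell from a median of 325.7 to 218.7 CPM (-0.62, edgeR adjusted p = 6.55e-05), Uqcr10 of complex III from 213.2 to 149.4 CPM (-0.52) and Cox7a1 of complex IV from 322.2 to 222.7 CPM (-0.48). The groups did not overlap for any of these genes. The median transcript length of this list was 1005 nt, and short transcripts were lower in general: with the length trend removed 23 members were lower (median -0.17), and Uqcr10 (edgeR adjusted p = 0.0845) and Cox7a1 (edgeR adjusted p = 0.249) lost their calls. Without sedentary control 4, 60 members were lower, where 13.5% of all genes were. Mitochondrial ribosomal proteins had 17 of 77 tested members lower and 0 higher (median -0.18), and 34 lower without sedentary control 4. Cytosolic ribosomal proteins had 11 of 79 lower (13.9%, median -0.08), against 7.16% of all genes. Without sedentary control 4, 20 were lower, and 13.5% of all genes were. With the length trend removed 5 were higher and 6 lower, and their median turned to 0.06.

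Mitochondrially encoded transcripts depended on sedentary control 4. With all 12 libraries 6 of 13 were lower and 0 higher (median -0.53), and without that library all 13 were lower (median -0.69). With the length trend removed 3 of 13 were lower (median -0.26). mt-Co3, a subunit of complex IV, had 33.4, 37.8 and 45.9 CPM in fatigued muscle and 38.7, 103.9 and 122.5 CPM in sedentary muscle, where the lowest value was that of sedentary control 4 (2.47-fold lower, edgeR adjusted p = 0.000885). Without it the log2 fold change was -1.47 (edgeR adjusted p = 5.5e-07). mt-Co2 (-0.94), mt-Atp6 (-1.08) and mt-Atp8 (-1.49) were lower as well. The call of mt-Atp8 was lost with the length trend removed (edgeR adjusted p = 0.0539). The levels reported for these genes rest on reads that copies of mitochondrial sequence in the nuclear genome could share, so their absolute values are uncertain.

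Contractile genes differed in part. Myh4 rose from a median of 23957 to 47632 CPM (0.87, edgeR adjusted p = 0.00517), with 5 of the 6 fatigued muscles above the sedentary range. Tnnt3 (0.38), Acta1 (0.37) and the calcium pump Atp2a2 (0.54) were higher without overlap, and the call of Acta1 was lost with the GC trend removed (edgeR adjusted p = 0.103). The fast calcium pump Atp2a1 (0.42, edgeR adjusted p = 0.035) lost its call without fatigued control 1, 2 or 6 or sedentary control 1, 2, 3, 5 or 6 (0.0537 to 0.0858). Myh1 (0.09), Myh2 (-0.43), Myh7 (2.05) and Ckm (0.30) did not pass with all libraries, with edgeR adjusted p from 0.0743 for Ckm to 0.679 for Myh1, and Myl3 was lower (-0.74). Ckm passed in 4 of 23 other settings (adjusted p from 0.000241 to 0.160), among them that without sedentary control 4 (edgeR adjusted p = 0.00083), which had the highest value of its group. Summed fiber markers were 138650 to 183174 CPM in fatigued muscle and 108104 to 163104 CPM in sedentary muscle, and the sedentary range ended at 124523 CPM without sedentary control 4. Of 31 contractile isoforms 6 were higher and 1 lower. Without that library 12 were higher and 1 lower, where 13.6% of all genes were higher and 13.5% lower.

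Collagens and other matrix genes were higher as a group, with 24 of 32 tested members higher and 0 lower (median 0.62) against 9.36% of all genes. Fn1, fibronectin, had 44.0, 78.1 and 91.2 CPM in fatigued muscle and 18.4, 26.6 and 40.9 CPM in sedentary muscle (1.35, SE 0.21, edgeR adjusted p = 0.000615). Eln, elastin, was also apart between the groups (0.99, edgeR adjusted p = 0.0017). Col1a2 was higher (0.91, edgeR adjusted p = 0.0206), a call lost in 3 of 23 other settings (adjusted p from 0.0508 to 0.0812). Col1a1 was higher (1.11, edgeR adjusted p = 0.0241), a call lost without sedentary control 3 (0.0535) or 6 (0.0537). Col3a1 (0.57, edgeR adjusted p = 0.0647) passed only without fatigued control 2 (0.0224) or sedentary control 1 (0.0394) among the fits that left out 1 library. Of 23 matrix proteases and inhibitors 9 were higher and 0 lower (median 0.58). The inhibitor Timp1 (1.54, edgeR adjusted p = 0.0691) did not pass with all libraries and passed in 3 of 22 other settings (adjusted p from 0.03 to 0.192), among them those without fatigued control 2 (0.03) or 4 (0.0482). Markers of connective tissue moved with these lists. Of 11 tested tendon and cartilage markers 5 were higher, their summed level ran from 133.7 to 549.9 CPM in fatigued and from 132.5 to 264.7 CPM in sedentary muscle, and Fmod was the most abundant. Thbs4 was higher (1.13, edgeR adjusted p = 0.00209), whereas the defining markers Tnmd (0.50, edgeR adjusted p = 0.178) and Scx (-0.26, edgeR adjusted p = 0.487) did not pass. Tnmd passed without fatigued control 4 (edgeR adjusted p = 0.0192), and Scx turned in sign without sedentary control 4 (0.05). Of 12 interstitial mesenchymal markers 6 were higher, with summed levels of 625.1 to 875.2 CPM against 465.2 to 744.2 CPM, Dcn as the most abundant, and Pdgfra higher (0.53, edgeR adjusted p = 0.00247). The call of Pdgfra was lost in the fit of 24 libraries (edgeR adjusted p = 0.0601), and 4 of these markers were higher without sedentary control 4. With the length trend removed 18 matrix genes were higher. The amount of tendon or fascia in the samples was not measured, and its part in the matrix result was not tested.

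The largest falls were those of neutrophil genes. Ngp, a granule protein (ENSMUSG00000032484), had 1 count over all fatigued libraries and 1755 over all sedentary ones, a ratio of CPM of 2318 in favor of sedentary muscle with a 95% counting interval from 415.4 to 91595. Ltf, lactoferrin, had 1 and 1097 counts (ratio 1449, interval 259.5 to 57273), and Camp had 2 and 158 (104.3, 28.4 to 869.0). Ly6g, the defining surface marker, had 0 counts in fatigued muscle and 85 in sedentary muscle, 37.4-fold lower if fatigued muscle is set at a floor of 3 counts over the group, with a lower 95% counting bound of 29.8-fold. These intervals cover counting error only and take each count as independent. If the mates of a read pair were counted separately, the intervals are too narrow. S100a9, the most abundant of these genes, had 0.051, 0.105 and 1.39 CPM in fatigued muscle and 12.2, 16.3 and 27.2 CPM in sedentary muscle (-5.63, SE 0.59, edgeR adjusted p = 6.6e-05). S100a8 (-5.44), Cd177 (-7.41), Mmp8 (-4.03) and Csf3r (-2.44) were lower with no overlap. The receptor Cxcr2 was lower too (-3.47), and without fatigued control 5 its log2 fold change was -5.69. All 9 tested members of the marker list were lower, with a median of -5.44, or -4.83 with the 3 genes of 1 or 2 counts at the near bound of their interval. These genes entered the test through their sedentary counts and could not be tested where at least 10 counts were required in every library. In a bulk sample, fewer cells of a type and less RNA per cell cannot be told apart.

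The summed neutrophil markers were 0.476 to 4.43 CPM in the fatigued libraries, where fatigued control 5 was highest, and 31.1 to 71.1 CPM in the sedentary libraries. Normalized over all 24 libraries, the fatigued PBMT mice had 0.939 to 2.89 CPM. The sedentary PBMT mice had 1.44 CPM in replicate 1 and 6.44 CPM in replicate 2, and 36.7 to 75.4 CPM in the other 4. Macrophage and myeloid markers did not move this way: 3 of 15 were higher and 0 lower, with Lyz2 as the most abundant. None of 13 lymphocyte markers was abundant enough to test.

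Markers of the remaining cell types differed less. Smooth muscle and pericyte markers had 4 of 11 higher, satellite cell markers 1 of 11 (4 of 12 without sedentary control 4), with no member lower, and white adipocyte markers 1 of 9 higher and 1 lower. Of all genes tested 9.36% were higher and 7.16% lower, and 13.6% and 13.5% without sedentary control 4. Summed white adipocyte markers did not overlap, at 1560 to 2159 CPM in fatigued and 2304 to 3246 CPM in sedentary muscle. Car3 was the most abundant of them, at 1299 to 1939 CPM against 2037 to 2981 CPM (-0.62), and was the lower member. Of the 9 tested members 8 had a log2 fold change above 0 (median 0.55), so the sum did not follow most of the list. No Schwann cell marker (11 tested, median 0.33; without sedentary control 4, 1 of 12 did) and no erythrocyte marker (6 tested, median -0.17) passed the edgeR test. Skin keratinocyte markers had 4 testable members, of which Trp63 was higher (0.84, edgeR adjusted p = 0.00262). Brown adipocyte markers had 2 of 4 lower, Cox7a1 (-0.48), the most abundant, and Cox8b (-0.36). Both also belong to the respiratory chain. Cidea did not pass (0.34, edgeR adjusted p = 0.263), and Ucp1 had 0 counts in every library. Summed brown adipocyte markers were 406.9 to 465.0 CPM in fatigued and 500.8 to 664.6 CPM in sedentary muscle.

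**Figure D3:**
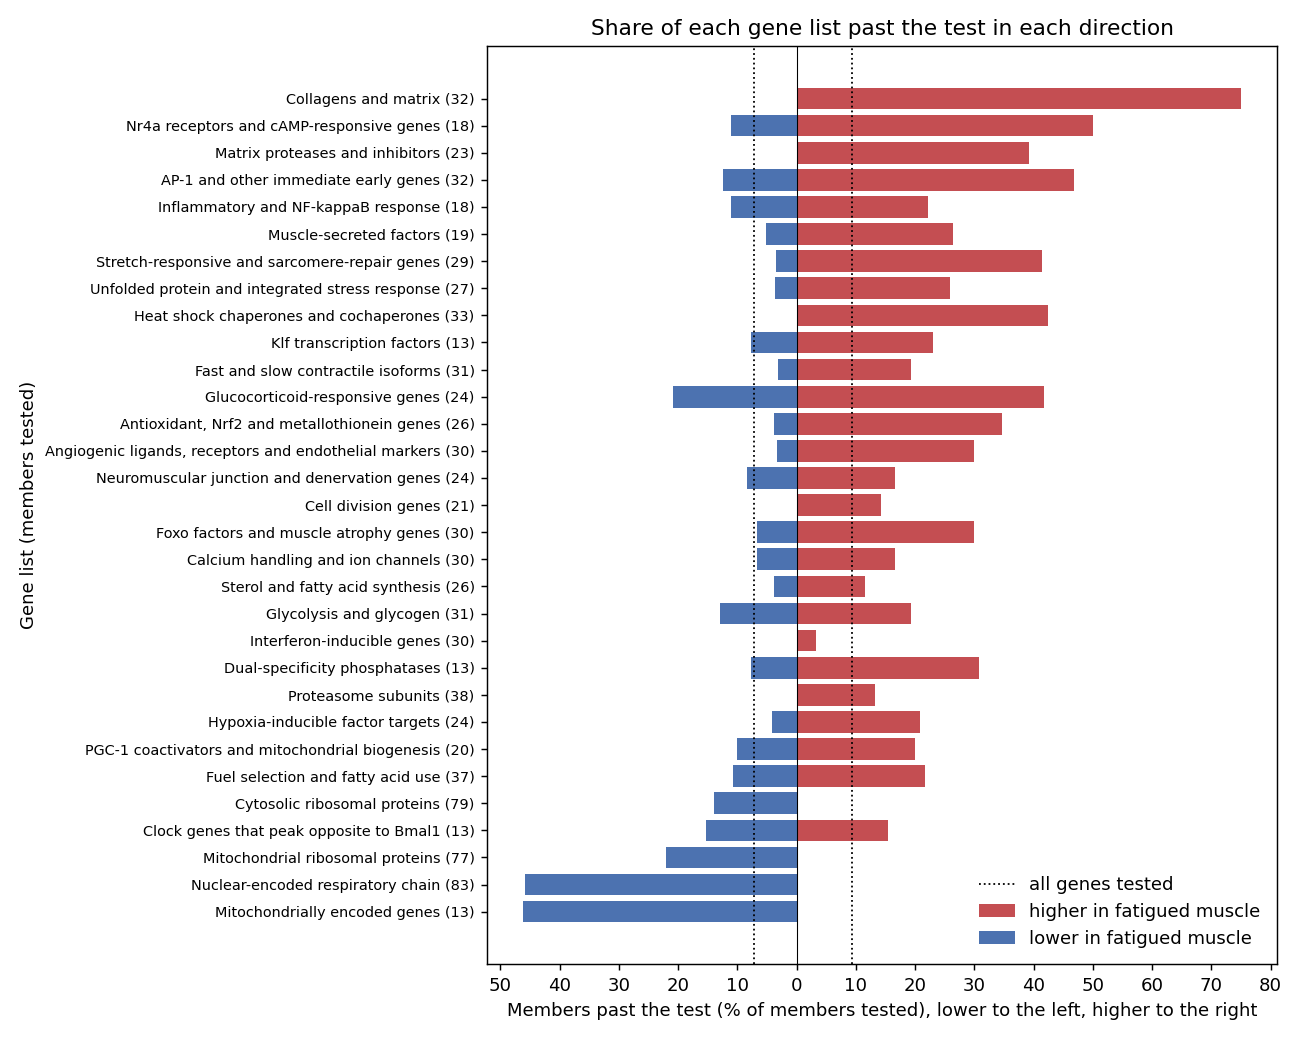
Share of tested members of each gene list that passed the test as higher (red, to the right) or lower (blue, to the left) in fatigued muscle, in percent of members tested, with the number tested in parentheses and lists ordered by median log2 fold change. Dotted lines mark all genes tested, 9.36% higher and 7.16% lower. Among lists other than cell type markers, matrix genes have the highest median, with 24 of 32 higher. The mitochondrially encoded and nuclear-encoded respiratory chain genes have the lowest.

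Further genes and lists are given by their values. Among genes named by size, Cntfr, a receptor subunit for ciliary neurotrophic factor (2.30, edgeR adjusted p = 9.16e-06), and Impact, a regulator of translation (2.23, edgeR adjusted p = 6.14e-07), were higher with all fatigued muscles above all sedentary ones. Hypoxia-inducible factor targets had 5 of 24 higher and 1 lower, proteasome subunits 5 of 38 higher and 0 lower, sterol and fatty acid synthesis 3 of 26 higher and 1 lower, cell division genes 3 of 21 higher and 0 lower, Klf factors 3 of 13 higher and 1 lower, calcium handling genes 5 of 30 higher and 2 lower, and neuromuscular junction genes 4 of 24 higher and 2 lower. Interferon-inducible genes had 1 of 30 higher. These counts changed with the setting, as did the share of all genes that passed, which was 13.6% higher and 13.5% lower without sedentary control 4 and 7.6% and 9.15% with the length trend removed. Proteasome subunits were 11 higher and 1 lower without sedentary control 4, but 3 higher with the length trend removed. Calcium handling genes were 11 higher and 2 lower without that library and 3 higher and 2 lower with the length trend removed. Without sedentary control 4 hypoxia targets were 5 higher and 3 lower, sterol synthesis 4 and 4, cell division 4 and 2, and neuromuscular junction genes 7 and 4.

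The same contrast in PBMT-treated mice of the same projects gave values that can be set beside these, with other mice but the same confounding. In a fit of all 24 libraries with 15108 genes tested, 4051 genes (26.8%) differed between fatigued and sedentary PBMT mice, and 2809 differed between the groups without PBMT. Log2 fold changes there were 3.95 for Nr4a3, 5.00 for Atf3, 2.05 for Ppargc1a, 3.26 for Xirp1, 2.17 for Trim63 and -2.04 for Pfkfb3. In this fit 97 named genes passed without PBMT, of which 10 did not pass in the PBMT mice. These were Egr1 (0.67, edgeR adjusted p = 0.356), Fos (0.59, edgeR adjusted p = 0.521), Ddit4 (-0.87, edgeR adjusted p = 0.229), Cebpd (-0.48, edgeR adjusted p = 0.283), Csf3r (-1.27, edgeR adjusted p = 0.0947) and Myl3 (0.02, edgeR adjusted p = 0.959), with Atp2a1, Ckm, Fhl1 and Il1rn. For none of these did the difference between the contrasts pass the test. Of all genes tested, 1 (0.00662%) differed between the contrasts with and without PBMT, and 665 did at an unadjusted p under 0.05. That gene was Nfil3, a basic leucine zipper repressor, with log2 fold changes of 0.89 without and 2.00 with PBMT (edgeR adjusted p of the difference 0.0037).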

How the data were processed

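RNA of the left TA muscle was measured in 12 mice, 6 fatigued and 6 sedentary, all without PBMT. The authors deposited raw counts for each Ensembl gene in 1 file per mouse, made from poly(A)-selected libraries and not normalized. The submitters' notes list Trimmomatic, STAR 2.7.1a, Picard 2.20.4, StringTie 2.0.4, featureCounts 1.6.0, HTSeq and the build GRCm38, with no role or order for each tool, and the use of strand in counting was not stated, nor whether mates of a pair were counted separately. Every library total exceeded the 30000000 reads in each direction that the submitters gave, so it is not known whether the counts are reads or pairs. Of 55487 identifiers, 55141 matched GENCODE M21, which gave symbols, lengths and GC content.

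Counts were analyzed jointly in R 4.3.3 with edgeR 4.0.16: filterByExpr with a minimum count of 10, TMM normalization, robust quasi-likelihood tests and Benjamini-Hochberg adjustment at 0.05. Log2 CPM used a prior count of 2. Measures of whole libraries were compared by exact permutation. The fit of all 24 libraries, with 4 groups, served only to set values beside those of the PBMT mice and to test the difference between the contrasts. The procedure was tested on simulated data. Library totals of 43271093 to 68726155 counts make counting error small for most genes tested, and precision therefore depended mainly on variation between mice.

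Genes were named by a written rule: core members of each list, up to 4 further called members per list and direction with the smallest p, the 15 largest rises and falls with at least 1 CPM and no overlap, and the 10 most abundant genes. The rule allowed a choice among these, and that choice, the members and the lists were made with results of these data known. Alternatives were other filters, size factors of DESeq2 1.42.0, the DESeq2 test, voom with quality weights in limma 3.58.1, removal of mitochondrially encoded genes, of length trends or of GC trends, thinned counts, a fit of 24 libraries, a replicate block, a test against a 2-fold change, and each library left out in turn.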

Additional observations from a re-analysis of the deposited data

Results flagged for a closer look

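Values below stood apart by the distance of a mouse to its nearest neighbor, taken against the range of its group. Chance passes the limit in about 1 in 20 groups where values are normally distributed, which was not tested for these CPM values. Over 266 groups of 6 values for named genes, 51 passed it. Genes of 1 library are not independent, so this number is no test against chance.

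Sedentary control 4 gave more of them than any other single library. Its mitochondrially encoded share was 2.62% and its distance from the group mean 0.477. Its summed muscle fiber markers were at 163104 CPM and its satellite cell markers, of which Des was the most abundant, at 6209 CPM. The number of satellite cells was not measured. This library was highest of its group for signaling and early genes: Junb at 19.6 CPM, Nr4a3 at 18.4, Gadd45g at 140.1, Klf2 at 43.1 and Vegfa at 108.5. The same held for regulators of metabolism, with Ppargc1b at 14.1 CPM, Esrra at 189.2, Hk2 at 699.0 and Txnip at 670.1. Stress and sarcomere genes were high there too, namely Hspb1 at 82.3 CPM, Ankrd1 at 18.4, Xirp1 at 103.2, Tnfrsf12a at 10.04, Trim63 at 445.5, Myh1 at 19612 and Ckm at 23144. The tendon marker Scx was high at 7.36 CPM. Per2 was lowest there at 7.68 CPM. These values set this library apart in many kinds of genes.

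Fatigued control 6 was highest for stress genes: Atf3 at 250.4 CPM, Hspa1a at 157.7, Hspa1b at 143.7, Dnajb1 at 31.8, Hspb1 at 183.2, Hsp90aa1 at 119.2 and Bag3 at 211.9. It was also highest for Ankrd1 at 317.8 CPM, Xirp1 at 1373, Nr1d1 at 123.4, Myh7 at 35.5 and Atp2a2 at 58.2.

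Fatigued control 5 was highest for Mt1 at 115.7 CPM, Mt2 at 116.5, Icam1 at 6.23, Socs3 at 16.9, Il1rn at 0.279, Ddit3 at 15.1 and Kdr at 64.6. It carried the most neutrophil transcripts of its group, with a sum of 4.43 CPM, S100a8 at 0.934, S100a9 at 1.39, Csf3r at 0.918, Cxcr2 at 0.574, Camp at 0.0328 and Cd177 at 0.0492. It was lowest for Sik1 at 29.3 CPM and Mstn at 24.3.

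Single values came from other libraries. Zfp36 was low in fatigued control 4 at 7.73 CPM and Csrp3 in fatigued control 2 at 19.9. Npas2 was high in fatigued control 3 at 0.922 CPM and Myl3 in fatigued control 1 at 43.3. Ngp at 0.0171 CPM in fatigued control 4 and Ltf at 0.0146 in fatigued control 1 each rest on 1 count. Summed lymphocyte markers were high in sedentary control 3 at 1.06 CPM.

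Nfil3 stood out in another way, since its fatigue effect was larger by 1.11 (log2) in the PBMT mice, the only gene for which this difference passed the edgeR test.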

How the results depend on the processing

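Of the 103 named genes that passed the test, 76 did so in the same direction in every other setting that tested them. Most calls were lost with no filter (13), with the replicate block (10) in the fit of 24 libraries (9) and without sedentary control 6 (9). With no filter these were Fos, Fosb, Nr4a1, Klf2, Dnajb1, Pdk4, Cebpd, Ddit4, Dbp, Col1a1, Col1a2, Tfam and Myl3. With the block they were Myc, Klf2, Dnajb1, Cebpd, Clock, Dbp, Metrnl, Col1a1, Col1a2 and Tfam, and in the fit of 24 libraries Fosb, Pdk4, Ucp3, Fbxo32, Clock, Metrnl, Col1a1, Col1a2 and Pdgfra. Voom with quality weights lost Hspa1a, Hspa1b, Dnajb1, Pdk4 and Cebpd. Removal of the length trend lost Dnajb1, Pdk4, Cox7a1, Uqcr10, mt-Atp8 and Atp2a1, removal of the GC trend Dnajb1 and Acta1, and thinning Dnajb1. Genes higher numbered 935 to 1987, lower 659 to 1969, and those changed by at least 2-fold 200 to 287 and 127 to 204 with 1 library left out in turn, the lower genes being fewest (659) without fatigued control 6 and most numerous (1969) without sedentary control 4. Voom with quality weights gave 2324 higher and 2259 lower. A test against a 2-fold change gave 20 higher and 12 lower. Genes lower by at least 2-fold numbered 102 with at least 10 counts in every library, 271 with DESeq2 and 93 with the length trend removed. The difference in mitochondrially encoded share ran from -4.64 to -2.05 with 1 library left out, and that in distance from the group mean from -0.0163 to 0.0251, with its sign turned without sedentary control 4.

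A replicate block applies only a shared number: correlations of deviations between mice of equal number ran from -0.143 to 0.050, and no mouse matched best its own number. With the block 1066 genes were higher and 648 lower, Kdr was at -0.0476 and the median of the dual-specificity phosphatases at -0.0251.

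The sign turned for values near 0. Kdr was at -0.0366 with voom and -0.0370 with the length trend removed, Scx at 0.0768 with voom and Myh1 at -0.0286 with the length trend removed. With 1 library left out Egr3 ran from -0.726 to 0.0107, Kdr from -0.270 to 0.179 and Scx from -0.370 to 0.0455. The median of the dual-specificity phosphatases was -0.0170 with voom and -0.00230 with the length trend removed. That of hypoxia-inducible factor targets was -0.00655 with at least 10 counts in every library, -0.00239 with DESeq2 size factors, -0.0575 with voom, -0.00634 in the fit of 24 libraries, -0.0102 with thinned counts, -0.00771 with the GC trend removed and -0.0649 to 0.0200 with 1 library left out. That of interferon-inducible genes was -0.0913 with voom and -0.0799 to 0.223 with 1 library left out. That of proteasome subunits was -0.000179 with at least 10 counts in every library, -0.000679 in the fit of 24 libraries, -0.000805 with thinned counts and -0.0128 to 0.0191 with 1 library left out. With the length trend removed cytosolic ribosomal proteins were at 0.0630 and sterol synthesis at -0.0318. Cell division genes ran from -0.0400 to 0.172 and keratinocyte markers from -0.318 to 0.0572 with 1 library left out, the latter 0.0620 with voom.

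Among other values of named genes over all settings 2887 kept their label, 107 were weaker and 33 stronger. Of list medians 980 kept theirs and 16 moved, and of list counts 1762 and 304. Exercise and project were confounded in every setting, no mouse was measured more than once, and intervals of counts cover counting error only. The cause of any difference was not tested.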

Other observations

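More genes reached 10 counts in fatigued libraries, 14362 to 15017, than in sedentary ones, 14125 to 14511 (exact permutation p = 0.013).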
